A study of Mus musculus with 22 samples.

Results

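Il1b, Nfkbiz and Ier3 are 3 genes of the inflammatory response that are linked to the transcription factor NF-kB, and they were followed here in mouse liver after an injection of interferon-gamma. They were found by symbol among probe sets with 1 gene symbol, and they are 3 of 8251 genes measured. All 3 were chosen on measured values of these arrays, since each stood above the controls 1 h after interferon-gamma. The 1 h values are therefore given as a description with no p. The later times were set against the same control arrays and the return was also part of the choice, so their tests are not independent of it. Il1b and Ier3 each had 1 probe set. Nfkbiz had 2, and the one with the higher mean was used.

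NF-kB dimers are held in the cytoplasm by inhibitor proteins of the IkB family, and signals from Toll-like, interleukin-1 and tumour necrosis factor receptors release them to the nucleus. Il1b encodes interleukin-1 beta, a cytokine made mainly by macrophages and monocytes as a precursor that caspase-1 cleaves. Nfkbiz encodes IkB-zeta, an atypical nuclear IkB protein that is itself induced early and helps to switch on a later set of genes such as Lcn2. Ier3, also called IEX-1, is an immediate early gene that responds to growth factors, stress and NF-kB and affects cell survival. In liver, Kupffer cells are a main source of interleukin-1, and hepatocytes respond to it with acute phase proteins.

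The study compared SOCS1-/-IFNg-/- mice, which lack both the cytokine and SOCS1, a JAK kinase inhibitor induced by interferons, with IFNg-/- mice, which lack the cytokine alone. All animals thus lacked their own interferon-gamma, and the only source was the injected protein. Recombinant interferon-gamma (4 µg in 100 µl, intraperitoneal) was given and livers were collected at 0.5, 1, 2, 4, 12, 16, 24 and 48 h. The controls were a liver from an animal that was not injected, and livers 4 and 12 h after 100 µl of phosphate-buffered saline (PBS). Each of the 11 conditions had 1 array per genotype, 22 in all, with no replicates. The sources used here do not say how old the mice were, which sex, or whether a liver sample was 1 mouse or a pool.

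Values are log2 expression on Affymetrix arrays, and a difference of 1 is a doubling. Array medians lay between 5.64 and 5.71. Socs1 was between 6.57 and 7.02 on the SOCS1-/-IFNg-/- arrays, whereas on the IFNg-/- arrays it reached 7.37 at 1 h and 9.21 at 2 h. Ifng lay between 2.18 and 2.61 on every array. Of 5 hepatocyte markers 4 were measured, and their summed level on the linear scale was between 25688 and 28958 on all arrays. The probe sets of the 3 genes were dim. The mean of the controls ranked at percentile 18.7 of all genes for Il1b, 18.2 for Nfkbiz and 27.1 for Ier3.

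The promoters of Il1b and Ier3 are shown because NF-kB acts through sites in such regions. The windows run from 250 bases before to 50 after the gene's start, from RefSeq on assembly GRCm38.p6. That of Il1b is chr2:129371090-129371389 on the minus strand and that of Ier3 is chr17:35821463-35821762 on the plus strand. Capitals mark the motif matches that a search of both strands found. They are a TATAAA box in Il1b and 2 kappaB matches in Ier3.
Il1b: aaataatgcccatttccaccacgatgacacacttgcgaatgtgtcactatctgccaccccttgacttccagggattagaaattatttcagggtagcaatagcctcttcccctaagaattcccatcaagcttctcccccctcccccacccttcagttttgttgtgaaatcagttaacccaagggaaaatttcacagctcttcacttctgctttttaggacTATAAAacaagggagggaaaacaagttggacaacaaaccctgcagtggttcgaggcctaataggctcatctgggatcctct
Ier3: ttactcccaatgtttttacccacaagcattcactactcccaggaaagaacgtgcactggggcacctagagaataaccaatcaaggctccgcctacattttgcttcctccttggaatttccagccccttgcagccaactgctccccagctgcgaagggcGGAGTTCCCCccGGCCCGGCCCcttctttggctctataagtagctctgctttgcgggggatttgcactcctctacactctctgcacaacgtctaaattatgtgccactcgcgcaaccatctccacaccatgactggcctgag
The TATAAA box of Il1b begins 31 bases before the start. The kappaB matches of Ier3, GGAGTTCCCC and GGCCCGGCCC, begin 92 and 80 bases before it and fit the motif on the minus strand. The kappaB motif was searched as GGGNNNNNCC and the AP-1 site as TGANTCA. Neither window held the AP-1 site in these letters, and that of Il1b held no kappaB match. Of 32851 promoters in the table, 50.8% held the kappaB motif, 7.81% the AP-1 site and 13.6% TATAAA. A match is thus common for kappaB, and it is a description of letters only. The windows had a GC content of 45.7% for Il1b and 54% for Ier3.

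Il1b was highest at 1 h in both genotypes. In SOCS1-/-IFNg-/- livers it was 4.43 untreated, 4.21 at PBS 4 h and 4.67 at PBS 12 h, and after interferon-gamma 4.85, 5.77, 4.61, 4.63, 4.20, 4.38, 4.14 and 4.54 at the 8 times in order. In IFNg-/- livers it was 4.27 untreated, 4.43 at PBS 4 h and 4.36 at PBS 12 h, then 4.89, 5.43, 5.25, 4.43, 4.30, 4.13, 4.10 and 4.34. The 0.5 and 1 h livers were above all 3 controls of their genotype in both. At 2 h the genotypes parted: the SOCS1-/-IFNg-/- liver was back among its controls, and the IFNg-/- liver was not. From 12 h on, no liver of either genotype stood above its highest control.

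The size of the Il1b rise can be read against each genotype's own controls. At 1 h it was 1.34 above the control mean in SOCS1-/-IFNg-/- and 1.08 above it in IFNg-/-. At 2 h it was 0.17 above in SOCS1-/-IFNg-/- and 0.90 above in IFNg-/-. At 4 h these differences were 0.20 and 0.08 in the same order of genotypes. The transcript of this cytokine thus stood above all controls at 2 sampled times in SOCS1-/-IFNg-/- and at 4 in IFNg-/-, the last of them by a margin too small to show at 2 decimals.

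Nfkbiz reached its highest level at 2 h in both genotypes and came down later than Il1b. In SOCS1-/-IFNg-/- livers it was 4.26 untreated, 4.56 at PBS 4 h and 4.93 at PBS 12 h, and after interferon-gamma 4.84, 5.40, 5.99, 5.47, 4.61, 4.74, 4.24 and 4.17. In IFNg-/- livers it was 4.16, 4.15 and 4.10 in those 3 controls, then 4.28, 5.71, 5.81, 4.99, 4.40, 4.36, 4.10 and 4.41. The 1, 2 and 4 h livers were above every control of their genotype in both. The controls of IFNg-/- lay close together, whereas those of SOCS1-/-IFNg-/- spread up to the PBS 12 h liver. Against these control means the 1 h liver was 0.82 higher in SOCS1-/-IFNg-/- and 1.57 higher in IFNg-/-, and the 2 h liver 1.40 and 1.67 higher.

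The other Nfkbiz probe set showed little of this course. It lay between 2.79 and 3.29 on all 22 arrays, at percentile 4.33 of the genes by its control mean, and its 1 and 2 h values were 2.97 and 3.09 in SOCS1-/-IFNg-/- and 3.29 and 3.27 in IFNg-/-. Those of IFNg-/- were above its controls, which reached 3.09, and those of SOCS1-/-IFNg-/- were not. The Nfkbiz results rest on the brighter probe set alone.

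Ier3 had a narrower range. In SOCS1-/-IFNg-/- livers it was 4.86 untreated, 4.997 at PBS 4 h and 4.95 at PBS 12 h, and after interferon-gamma 4.93, 5.52, 5.28, 5.18, 5.05, 5.14, 4.99 and 4.96. In IFNg-/- livers it was 5.01, 4.97 and 4.97 in the controls, then 4.95, 5.41, 5.46, 5.05, 4.98, 4.78, 5.08 and 4.99. The highest liver was that of 1 h in SOCS1-/-IFNg-/- and that of 2 h in IFNg-/-. In both genotypes the 1, 2 and 4 h livers were above the 3 controls, and the 0.5 h liver was not. The 1 h liver stood 0.59 above the control mean in SOCS1-/-IFNg-/- and 0.43 above it in IFNg-/-.

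**Figure D1:**
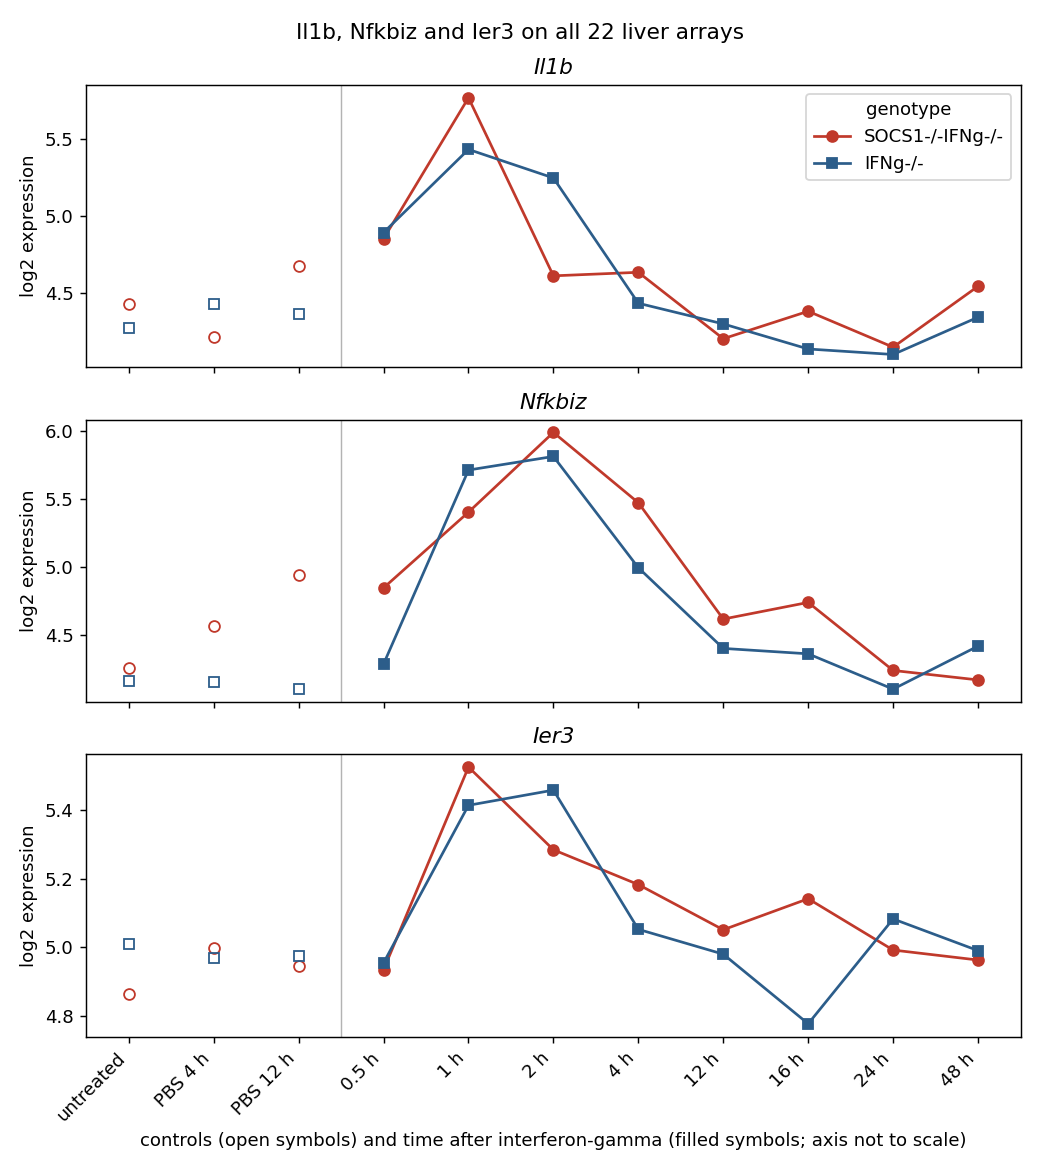
Log2 expression of Il1b, Nfkbiz and Ier3 on each of the 22 arrays, with controls as open symbols at the left and interferon-gamma times as filled symbols joined by lines (SOCS1-/-IFNg-/- red circles, IFNg-/- blue squares; each point is 1 array; the time axis is not to scale). Il1b peaks at 1 h in both genotypes (5.77 and 5.43), Nfkbiz at 2 h in both (5.99 and 5.81), and Ier3 at 1 h in SOCS1-/-IFNg-/- and at 2 h in IFNg-/-.

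The mean of both genotypes at each time was set against the mean of the 6 control arrays with limma, in one model of condition and genotype for all 8251 genes. At 1 h, where the choice was made, Il1b was 1.21 above the controls (2.31-fold), Nfkbiz 1.20 (2.29-fold) and Ier3 0.51 (1.42-fold). Over all genes 0.158% were called there, and nothing is read from the members beside that share. At 0.5 h Il1b differed by 0.48 ± 0.14 SE and was not called (limma adjusted p = 0.507), and 0 genes (0%) were called in all, while 478 had an unadjusted p under 0.05. Nfkbiz differed by 0.20 and Ier3 by -0.01 at that time, and neither was called.

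At 2 h, Nfkbiz and Ier3 had risen. Nfkbiz was 1.54 ± 0.17 SE higher than in controls (2.91-fold, limma adjusted p = 0.000171) and Ier3 0.41 ± 0.09 SE higher (1.33-fold, limma adjusted p = 0.0256). Il1b differed by 0.53 ± 0.14 SE and was not called (limma adjusted p = 0.0843), with a value of 4.61 in SOCS1-/-IFNg-/- and 5.25 in IFNg-/- behind that mean. Thus 2 of 3 members were called, where 1.66% of all genes were. This contrast uses the same control arrays as the 1 h rise that chose the members, so it does not stand apart from the choice. The Ier3 call was lost without both untreated arrays (adjusted p = 0.0598) and without both PBS 12 h arrays (adjusted p = 0.0567). With array weights Il1b was called as well (adjusted p = 0.0345).

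At 4 h Nfkbiz was the 1 member of 3 called. It was 0.87 ± 0.17 SE higher (1.83-fold, limma adjusted p = 0.00698), in a background of 5.03% of genes called, against the same control arrays as the 1 h rise. Il1b differed by 0.14 (limma adjusted p = 0.704) and Ier3 by 0.16 (limma adjusted p = 0.396). With array weights, which gave the 4 h pair the lowest weight (0.366), Nfkbiz was not called (adjusted p = 0.211). Both arrays of a pair get the same weight in this model, which follows how far their genotype difference departs from the mean. The weight thus cannot tell array quality from a genotype difference at that time. On the 4 h arrays the 3-prime minus 5-prime signal of Actb, a mark of RNA quality, was 0.33 in SOCS1-/-IFNg-/-, below every control (0.66 to 1.32), and 0.77 in IFNg-/-. That of Gapdh was 0.47 in SOCS1-/-IFNg-/- and 0.54 in IFNg-/-, within its controls (0.37 to 0.85). The part of RNA quality in the Nfkbiz difference was not tested.

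From 12 h on, 0 of 3 members were called at any time, in limma or in any other setting run, again against the control arrays that the choice used. Single livers still stood above all controls of their genotype. In IFNg-/- these were the Nfkbiz livers at 12, 16 and 48 h (4.40, 4.36 and 4.41, against at most 4.16) and the Ier3 liver at 24 h, and in SOCS1-/-IFNg-/- the Ier3 livers at 12 and 16 h (5.05 and 5.14, against at most 4.997). Of all genes, limma called 1.42% at 12 h and 0.448% at 16 h, and the shares at 24 and 48 h were 0.17% and 0.0121%. Il1b differed from controls by -0.15, -0.14, -0.27 and 0.05 at these times, Nfkbiz by 0.15, 0.19, -0.19 and -0.07, and Ier3 by 0.06, 0.00, 0.08 and 0.02. With standard errors of 0.14 for Il1b, 0.17 for Nfkbiz and 0.09 for Ier3, a small remaining difference could not be seen.

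**Figure D2:**
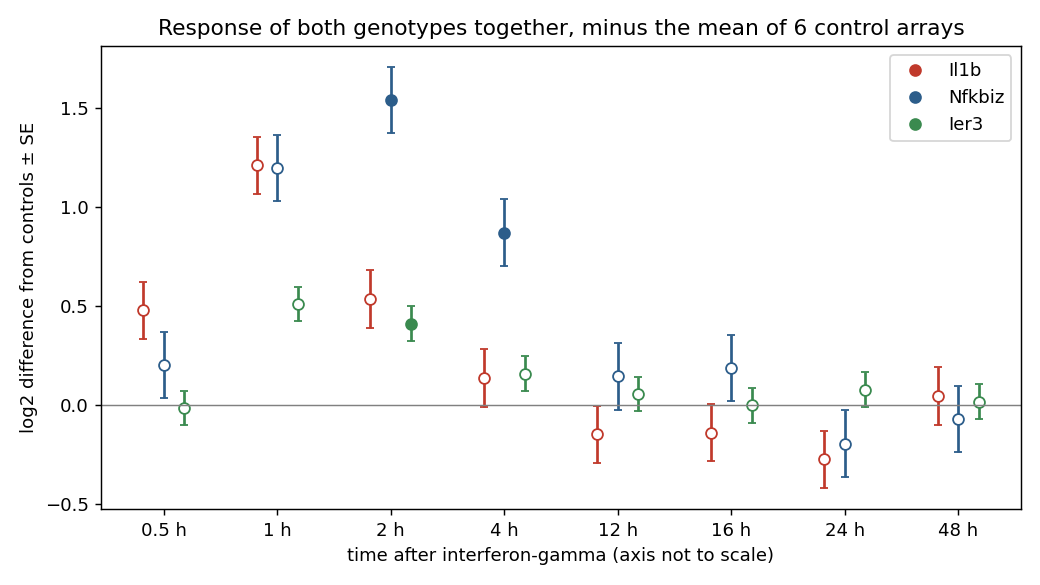
Log2 difference of each interferon-gamma time from the mean of the 6 control arrays, both genotypes together, with the SE of the fit as bars (filled symbols are past the threshold of 0.05 after adjustment over 8251 genes; the 1 h values were not tested because they chose the genes). Nfkbiz stays highest at 2 and 4 h (1.54 and 0.87), Il1b is at 0.53 by 2 h, and from 12 h on the differences run from -0.27 (Il1b, 24 h) to 0.19 (Nfkbiz, 16 h).

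PBS livers exist at 4 and 12 h only, so at 1 and 2 h interferon-gamma and the injection cannot be told apart. At 4 h Nfkbiz was 5.47 with interferon-gamma and 4.56 with PBS in SOCS1-/-IFNg-/-, and 4.99 and 4.15 in IFNg-/-. Interferon minus PBS was 0.87 ± 0.20 SE, with limma adjusted p = 0.0496, just under the threshold. Leaving out a pair of arrays ended this call in 6 of 9 fits (adjusted p up to 0.072), as did trend and robust variance, quantile normalization and array weights. That is 1 of 3 members, beside 1.36% of all genes. Il1b differed by 0.21 ± 0.18 SE (limma adjusted p = 0.751) and Ier3 by 0.14 ± 0.11 SE (limma adjusted p = 0.733).

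At 12 h, 0 of 3 members differed from PBS past the threshold, beside 0.109% of genes. The differences were -0.27 for Il1b, -0.01 for Nfkbiz and 0.06 for Ier3. The PBS 12 h liver of SOCS1-/-IFNg-/- was the highest control of Nfkbiz, and without both PBS 12 h arrays among the controls the Nfkbiz differences were 1.62 at 2 h and 0.95 at 4 h. PBS against untreated livers gave 0.07 ± 0.15 SE for Il1b, 0.23 ± 0.18 SE for Nfkbiz and 0.04 ± 0.09 SE for Ier3, and limma called 0 of 3 beside 0.0242% of genes. The 3-prime minus 5-prime signal of Actb was 0.66 to 0.83 on the PBS arrays and 1.31 to 1.32 on the untreated arrays, and its part in that comparison was not tested. On the 1 h arrays it was 0.77 in SOCS1-/-IFNg-/- and 1.16 in IFNg-/-, within the range of the controls.

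The loss of SOCS1 was examined in the 11 pairs of arrays that share a condition. Nfkbiz was higher in SOCS1-/-IFNg-/- in 9 of 11 pairs, by 0.25 ± 0.09 SE on average (95% confidence interval 0.06 to 0.43). It was not called over all genes (limma adjusted p = 0.413), whereas an exact two-sided sign-flip test of this gene alone gave p = 0.0361. The pair differences ran from -0.31 at 1 h to 0.83 at PBS 12 h. The pairs at PBS 4 h (0.41), 0.5 h (0.56) and 4 h (0.48) were also on the higher side, so the higher pairs included both control and interferon livers. The other Nfkbiz probe set gave -0.02.

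Il1b was higher in SOCS1-/-IFNg-/- in 7 of 11 pairs, by 0.05 ± 0.08 SE (95% confidence interval -0.11 to 0.21, limma adjusted p = 0.965, exact sign-flip p = 0.612). Its pairs ran from -0.64 at 2 h to 0.34 at 1 h. Ier3 was higher in 5 of 11 pairs, by 0.02 ± 0.05 SE (limma adjusted p = 0.981, exact sign-flip p = 0.698), with pairs from -0.17 at 2 h to 0.36 at 16 h. Over all genes 0.206% were called for genotype, and 0 of 3 members were among them. Single pairs are 1 array against 1 array, so the 2 h difference of Il1b was not tested.

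Whether the genotype difference was itself different after interferon-gamma was asked of the 8 interferon pairs against the 3 control pairs. It was -0.05 ± 0.17 SE for Il1b, -0.27 ± 0.19 SE for Nfkbiz and 0.09 ± 0.10 SE for Ier3. By limma 0 of 3 members and 0 genes in all (0%) were called, with 387 genes at an unadjusted p under 0.05. Exact permutation tests of the 165 choices of control pairs gave two-sided p = 0.842 for Il1b, p = 0.267 for Nfkbiz and p = 0.376 for Ier3, where the smallest p possible is 0.00606.

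**Figure D3:**
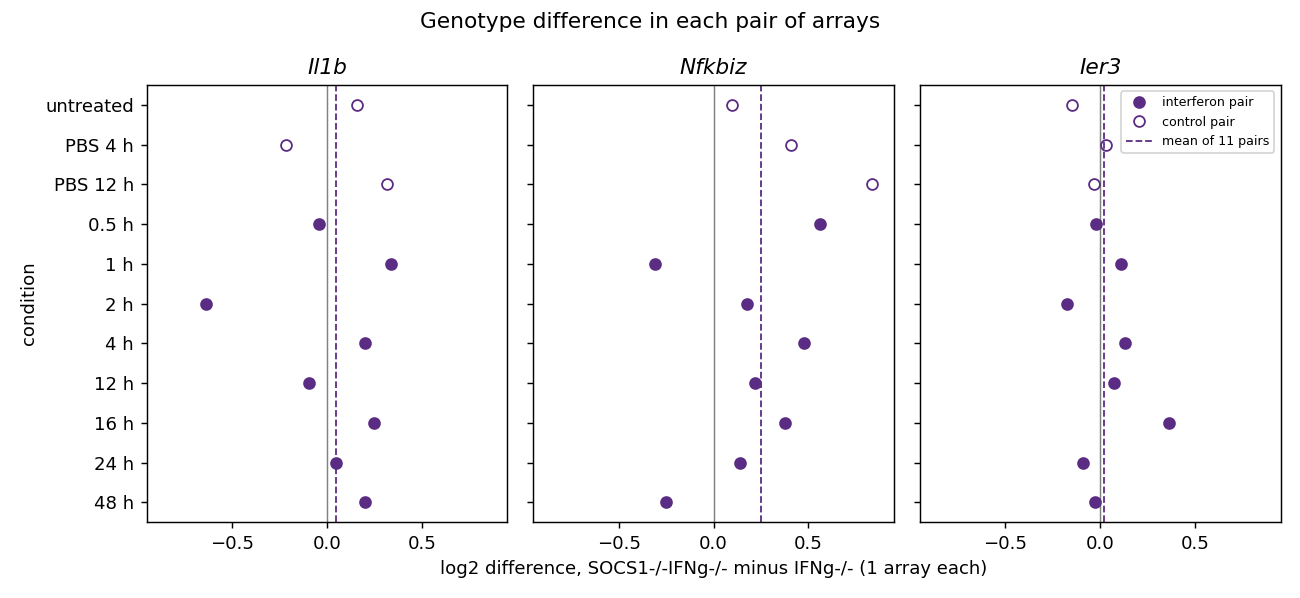
Log2 difference, SOCS1-/-IFNg-/- minus IFNg-/-, in each of the 11 conditions (filled, interferon-gamma; open, control; dashed line, mean of 11 pairs; 1 array per genotype in each). Nfkbiz lies right of 0 in 9 of 11 pairs with a mean of 0.25, while Il1b (0.05) and Ier3 (0.02) scatter around 0.

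Among genes with an SD of at least 0.5 over the arrays, those whose course was most like that of each member were ranked by the smaller of the Pearson r in the 2 genotypes, each across 11 arrays. For Nfkbiz these were Irf1, a transcription factor induced by interferons (0.93), Gdap10 (0.92), the antiviral GTPase Mx2 (0.89), Zfp36, which destabilizes cytokine mRNAs (0.89), and the GTPase Irgm2 (0.87). For Ier3 they were Irf1 (0.79), Gdap10 (0.76), Gadd45g (0.74), Nfkbiz itself (0.74) and Foxq1 (0.73). For Il1b they were Egr1, an immediate early transcription factor (0.72), Gdap10 (0.58), Igfbp1 (0.57), Irf1 (0.57) and Foxq1 (0.55). Il1b (SD 0.44) and Ier3 (SD 0.19) were under that SD limit and could not be ranked. The r of Il1b with Ier3 was 0.69 in SOCS1-/-IFNg-/- and 0.82 in IFNg-/-. Without the 1 h array it was 0.05 and 0.71. The arrays share the early times at which these genes are high, and the values are descriptions. A dimmer probe set of Egr1 lay between 3.21 and 4.01 in SOCS1-/-IFNg-/- and between 3.41 and 3.71 in IFNg-/-, in both with its highest array among the controls. Egr1 was already 9.57 at 0.5 h in SOCS1-/-IFNg-/- and 8.87 in IFNg-/-, and Irf1 was highest at 4 h in SOCS1-/-IFNg-/- (10.73) and at 2 h in IFNg-/- (10.56).

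Among the tested genes that make, release, sense and block interleukin-1, those that passed did so at 2 h or later. Il1b stands apart from this, since its 1 h rise (1.21 ± 0.14 SE) was part of the choice and was not tested. Of all genes 0 passed at 0.5 h and 13 at 1 h, so the counts do not show when the response of this system began. Of 14 measured genes of the interleukin-1 family, its receptors and its processing, 0 were called at 1 h, 2 at 2 h and 4 at 4 h, all higher (1.66% of all genes at 2 h and 5.03% at 4 h), with medians of 0.07, 0.18 and 0.11 where the median of all genes lay between -0.03 and -0.02. Il1rn, the receptor antagonist, was 5.76 at 2 h and 6.38 at 4 h in SOCS1-/-IFNg-/-, against controls of 4.31 to 4.64, and 5.31 and 5.10 in IFNg-/-, against controls of 4.31 to 4.37. It rose by 1.16 ± 0.18 SE at 2 h (limma adjusted p = 0.00279) and by 1.36 ± 0.18 SE at 4 h, and it also stood 1.41 ± 0.22 SE above PBS at 4 h (limma adjusted p = 0.0044). Myd88, the adaptor of the receptor, rose by 0.97 at 2 h and 1.14 at 4 h.

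The receptor gene Il1r1 rose by 1.71 ± 0.22 SE at 4 h (limma adjusted p = 0.000504), but it was also high in the PBS 4 h livers. It was 7.86 with interferon-gamma and 7.70 with PBS in SOCS1-/-IFNg-/-, and 8.68 and 6.88 in IFNg-/-, and interferon minus PBS was not called (limma adjusted p = 0.104). Casp4, the inflammatory caspase-11, rose by 0.79 at 4 h, and Il18bp, which binds interleukin-18, rose by 0.81 at 12 h. Il1a, the other interleukin-1, was 5.49 at 1 h in both genotypes, against controls of 4.92 to 5.11 (0.46 ± 0.09 SE, limma adjusted p = 0.0882). At 0.5 h it was already 5.46 in SOCS1-/-IFNg-/- and 5.45 in IFNg-/- (0.42 ± 0.09 SE, limma adjusted p = 0.369). Casp1, which cleaves the Il1b product, differed by 0.07 at 1 h and 0.23 at 4 h and was called at neither.

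The list of the NF-kB system itself leaves out Nfkbiz, which was called at 2 h (1.54). Of 16 measured subunits and regulators on it 0 were called at 1 h or 2 h, with medians of -0.02 and 0.13. Of all genes 0.158% and 1.66% were called at these times, so nothing is read from the counts of 0. Tbk1 differed by 0.90 at 2 h (limma adjusted p = 0.0569). At 4 h 4 of 16 were called, beside 5.03% of all genes, all higher: the kinase Tbk1 (1.29), the inhibitor Nfkbia (0.62), the subunit Rela (0.59) and the inhibitor Nfkbib (0.39). Against PBS at 4 h 1 of 16 was called, Nfkbib, beside 1.36% of all genes. Tbk1 (1.14, limma adjusted p = 0.054), Rela (0.52, adjusted p = 0.0621) and Nfkbia (0.64, adjusted p = 0.119) were not called against PBS. Nfkbia was 7.96 at 4 h in SOCS1-/-IFNg-/- and 7.94 in IFNg-/-, against 7.21 to 7.49 in the 6 controls. Tnfaip3, a feedback inhibitor of NF-kB, differed by 0.52 ± 0.16 SE at 2 h (limma adjusted p = 0.135). Behind that mean it was 4.19 in SOCS1-/-IFNg-/-, within its controls (3.86 to 4.25), and 4.94 in IFNg-/-, above its controls (3.95 to 4.12).

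Other targets of NF-kB were called mostly at 2 and 4 h, and some, such as Nfkbia and Zfp36, stand on a further list here. Of 32 measured targets 1 was called at 1 h, 6 at 2 h and 8 at 4 h, while the 12 h livers gave 1, all higher, with a median of 0.15 at 2 h, when 29 of 32 were above 0. Of all genes, limma called 0.158% in the 1 h livers and 1.66% in the 2 h livers. The share was 5.03% for the 4 h livers and 1.42% for those of 12 h. The 1 h call was Ccl2 and the 12 h call was Icam1, so each of these counts rests on 1 gene. Against PBS 2 of 32 were called at 4 h, Ccl2 and Icam1, and 0 at 12 h, beside 1.36% and 0.109% of all genes. The monocyte chemokine Ccl2 stood at 5.96, 6.82 and 8.06 in SOCS1-/-IFNg-/- livers of 1, 2 and 4 h, and at 5.43, 7.59 and 6.47 in those of IFNg-/-, against 3.54 to 4.11 in controls. The adhesion molecule Icam1 rose by 1.90 ± 0.23 SE at 2 h and 2.17 ± 0.23 SE at 4 h (limma adjusted p = 0.000363 and 0.000118). Cxcl1, a neutrophil chemokine, rose by 3.19 at 2 h, but it was 9.10 in SOCS1-/-IFNg-/- and 8.41 in IFNg-/- at PBS 4 h too, and at 4 h interferon minus PBS was not called (limma adjusted p = 0.6). Tnf and Cxcl2 were not called at any of 1, 2 and 4 h, where their differences lay between 0.13 and 0.40.

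Of 16 measured immediate early genes, a list without Ier3, 1 was called at 1 h, 6 at 2 h and 2 at 4 h. All were higher, with a median of 0.57 at 2 h. Of all genes 0.158%, 1.66% and 5.03% were called at these times. Against PBS at 4 h 0 of 16 were called (Junb adjusted p = 0.236 and Jun adjusted p = 0.108 by limma), while 1.36% of all genes were. The genes called against all controls included Egr1 (2.82 at 2 h), Zfp36 (1.58), Junb, a subunit of AP-1 (1.31), and Egr2 (0.61). Of 7 genes that depend on IkB-zeta in other cells, Cebpd was called at 2 h (1.64), and Lcn2, an iron-binding acute phase protein, was called at 4 h (2.90) and 12 h (3.97). That is 1 of 7 at each of these times, beside 1.66%, 5.03% and 1.42% of all genes. Lcn2 was at most 7.23 at 2 h, when Nfkbiz peaked, and reached 10.62 at 16 h in SOCS1-/-IFNg-/- and 9.06 at 24 h in IFNg-/-. In SOCS1-/-IFNg-/- it was 5.91 and 6.79 at PBS 4 h and PBS 12 h, against 4.62 untreated. The same livers of IFNg-/- had 4.48 and 4.88, against 4.13. A link between Nfkbiz and Lcn2 was not tested. Its other probe set lay between 5.73 and 6.26 in SOCS1-/-IFNg-/- and between 5.83 and 6.12 in IFNg-/-. The medians of these 7 genes were 0.02 at 2 h and 0.03 at 4 h. For genotype 0 genes of any of the 5 lists were called, where 0.206% of all genes were, so nothing is read from this count.

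**Figure D4:**
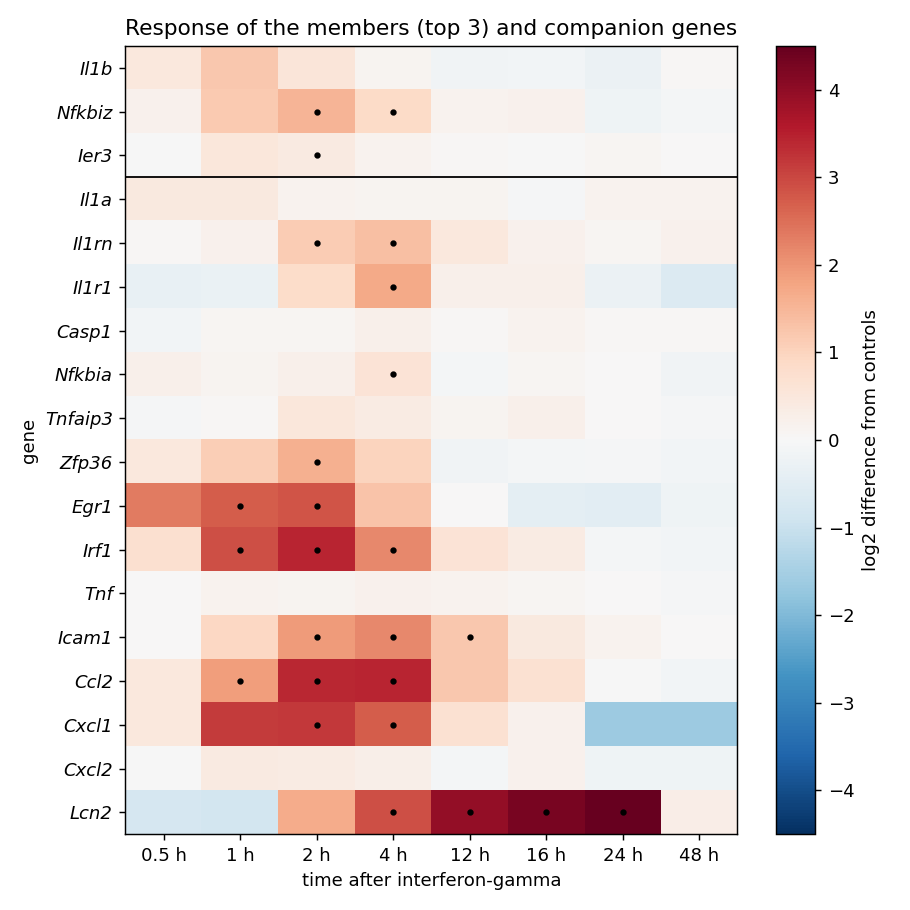
Log2 difference from the 6 control arrays at each interferon-gamma time, as colour, for the 3 members (top) and 15 companion genes (black dots mark genes past the threshold; the members were not tested at 1 h). Il1rn is called at 2 and 4 h, Il1r1 and Nfkbia at 4 h, and Lcn2 stays high to 24 h (2.90 at 4 h, 3.97 at 12 h).

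Whole liver was measured, so more cells of a type and more RNA per cell cannot be told apart. The markers of cells that make interleukin-1 were compared on the same arrays, as sums on the linear scale. The 5 of 6 monocyte markers measured summed to 362 to 367 at 1 h, against 294 to 356 in the 6 controls. Of these 1 was above its own controls in SOCS1-/-IFNg-/- and 3 in IFNg-/-, while Ccr2, Itgam and S100a4 had means below 4.83 and were dim throughout. Cd14 was 7.69 at 1 h in both genotypes, against 7.33 to 7.45 in controls, and Ccr2 was 3.27 in SOCS1-/-IFNg-/- and 3.15 in IFNg-/- at 1 h, against 3.22 to 3.52. The monocyte sum was 359 to 362 at 2 h and 378 to 408 at 4 h, also above the controls. At 4 h 1 of the 5, Cd14, was called, beside 5.03% of all genes. Cd14 was the brightest of the 5 and weighs most in the linear sum, so the sum does not speak for all 5 markers. The part of monocytes in the rises of the 3 genes was not tested.

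The 9 of 11 Kupffer cell and macrophage markers measured summed to 1385 to 1525 at 1 h, against 1300 to 1642 in controls, and 2 in SOCS1-/-IFNg-/- and 1 in IFNg-/- were above the controls of the genotype. At 4 h the sum was 1882 in SOCS1-/-IFNg-/- and 1531 in IFNg-/-, with 4 and 2 of the 9 above the controls of the genotype. In SOCS1-/-IFNg-/- the 4 were C1qa, C1qb, C1qc and Adgre1, while Marco (4.85) lay below its controls. C1qc (9.37) was the brightest there and weighs most in the linear sum, so the sum does not speak for all 9 markers. At that time 1 of the 9, C1qb, a complement gene of macrophages, was called, beside 5.03% of all genes. The part of these cells in the Nfkbiz difference at 4 h was not tested. All 12 neutrophil markers were measured and summed to 754 to 762 at 1 h, against 742 to 837 in controls, with 3 of 12 in SOCS1-/-IFNg-/- and 4 of 12 in IFNg-/- above the controls of the genotype. At 1 h Elane, Camp, Ltf, Csf3r, Cxcr2 and Ly6g lay below the controls of the genotype in SOCS1-/-IFNg-/-, as did Camp and Csf3r in IFNg-/-. S100a8 went the other way and does not speak for the list. It was 4.67 in SOCS1-/-IFNg-/- and 4.54 in IFNg-/- at 1 h, against 3.85 to 4.38 in controls. In SOCS1-/-IFNg-/- it was highest at 12 h (5.69), when Il1b was 4.20. In IFNg-/- it was 4.53, 4.54 and 4.58 at 0.5, 1 and 2 h and 3.93 at 12 h, when Il1b was 4.30. The part of neutrophils in the Il1b values was not tested.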

How the data were processed

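RNA of 22 mouse livers was measured on Affymetrix arrays, 1 array per genotype and condition. The authors deposited log2 values, 1 per probe set, normalized between arrays; affy is named in the submitters' processing notes, while no source used here names the normalization or summary method. The values ran from 1.73 to 13.5 (0 missing), which fits a log2 scale. Of 12488 probe sets, 66 controls were left out, 10833 had 1 symbol, 396 several and 1193 none. The probe set with the highest mean stood for a gene, giving 8251 genes. No 2 arrays were identical (highest r 0.996).

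limma 3.58.1 in R 4.3.3 was used (lmFit, eBayes), with Benjamini-Hochberg adjustment over all genes and 0.05 as threshold. Responses at each time, interferon minus PBS and PBS minus untreated came from a model with condition and genotype as additive terms on all arrays (10 residual degrees of freedom), in which the genotypes stand in for replicates. Genotype was fitted on 11 within-pair differences, with exact sign-flip (2048 flips) and permutation tests. The number of arrays limits the precision, and p-values cover no more than the spread of these arrays. On simulated data for 8251 genes, a log2 change of 1 was recovered in 98% of 100 genes for the 2 h response and in 100% for genotype. The simulated noise was normal and independent between genes and arrays. Smaller changes, such as that of Ier3 at 2 h (0.41) or of Nfkbiz for genotype (0.25), were not simulated. Alternatives were array weights, trend and robust variance, quantile normalization, other probe sets, other controls, no genotype term, no pairing, genes with a mean under 4.83 left out and each pair left out.

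A further promoter motif is not reported here. Members, lists and tests were chosen with earlier results of these data known. The text names the members, Socs1 and Ifng, and the 5 genes of most like pattern per member. It also names up to 4 called genes per list and comparison, and a set of 15 companions. Single cell type markers, such as Cd14, Ccr2, C1qb and S100a8, were named after their values were seen.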

Additional observations from a re-analysis of the deposited data

Results flagged for a closer look

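Il1b at 1 h stood apart from the other interferon arrays of SOCS1-/-IFNg-/-. Its gap to the next array was 0.565 of the range over 8 arrays. These arrays are different times after the injection and the 1 h rise is what chose the gene, so the value restates the choice and is no test. In IFNg-/- the 1 h array did not stand apart in this way, since the 2 h array lay next to it (5.25 against 5.43).

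For 2 genes both PBS arrays moved away from untreated in opposite directions in the genotypes. For Nfkbiz the PBS livers lay above the untreated liver in SOCS1-/-IFNg-/- (4.56 and 4.93 against 4.26) and below it in IFNg-/- (4.15 and 4.10 against 4.16), a difference of 0.524 between the genotypes' mean changes. For Ier3 the PBS livers were 4.997 and 4.95 against 4.86 untreated in SOCS1-/-IFNg-/-, and 4.97 and 4.97 against 5.01 in IFNg-/-, a difference of 0.146. Neither difference was tested, and each rests on 3 arrays per genotype.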

How the results depend on the processing

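The number of members called stayed within 1.5 times the value given in 53 of 58 counts under other settings and in 112 of 120 with a pair of arrays left out. A count of 0 that stayed 0 was taken as unchanged. Members were called only at 2 h, at 4 h and for interferon minus PBS at 4 h. The 5 and 8 counts that moved all came from these comparisons, so the tally does not measure how stable the calls are. At 2 h 1 member instead of 2 was called with controls without untreated arrays, and between 1 and 2 when a pair was left out. At 4 h 0 instead of 1 was called with array weights. For interferon minus PBS at 4 h 0 instead of 1 was called with trend and robust variance, array weights and quantile normalization (Nfkbiz adjusted p 0.0723, 0.576 and 0.0672), and between 0 and 1 when a pair was left out. The other Nfkbiz probe set turned the sign at 0.5 h (-0.090), 4 h (-0.21), 12 h (-0.13), 16 h (-0.11), for interferon minus PBS at 4 h (-0.080), PBS minus untreated (-0.042) and genotype (-0.022), and gave 0.11 at 1 h and 0.16 at 2 h. The counts of members leave that probe set out; with it the Nfkbiz calls were lost at 2 h, 4 h and for interferon minus PBS at 4 h (adjusted p 0.548, 0.198 and 0.876). Small values not called also changed sign. Nfkbiz at 48 h was 0.0078 without PBS 12 h controls. Ier3 at 16 h was 0.0045 after quantile normalization and 6.55e-05 without PBS 12 h controls, and the Ier3 genotype difference was -0.0048 with array weights. With a pair left out the ranges were -0.030 to 0.17 for Il1b in PBS minus untreated, -0.20 to 0.062 for Il1b in interferon minus control pairs, -0.15 to 0.0078 for Nfkbiz at 48 h, -0.012 to 0.011 for Ier3 at 16 h and -0.014 to 0.039 for its genotype difference. The causes were not tested. With the dimmest genes left out (mean under 4.83) Il1b and Nfkbiz were not in the table, so that setting was run for Ier3 alone. No paired analysis by replicate number was possible because there are no replicates; pairs here share a condition.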
